A study of Homo sapiens with 2 samples.

Results

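The genes described here are the ZNF genes that lie outside chromosome 19: the protein-coding genes of the deposited table whose symbol is ZNF followed by a digit and whose chromosome is not 19. There were 265 of them among 58735 genes, on 20 chromosomes, and a further 249 ZNF genes lie on chromosome 19. They were read in NCI-H460, an established human line of large cell lung carcinoma. That name is from the samples' own labels, and the design text of the series has NCI-H469 instead. One library, siControl, came from wild-type cells transfected without an siRNA against CYP4F11, and its label names no control sequence. The other, siCYP4F11, came from cells transfected with an siRNA that targets CYP4F11, a lipid-hydroxylating cytochrome P450, and both were harvested 24 h after lipid transfection. Each group is 1 library of 1 cell line, so no value below has a replicate check, no p-value is given, and every difference is between these 2 libraries. Symbol and chromosome chose the genes, but the set was proposed with this contrast in view, so its values are a description.

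ZNF genes encode zinc finger proteins, most of them with arrays of C2H2 fingers, in which a pair of cysteines and a pair of histidines hold a zinc ion and each finger contacts a few bases of DNA. Many also carry a KRAB domain, which recruits the scaffold protein TRIM28 and through it the histone methyltransferase SETDB1 and heterochromatin proteins, and these repressors are known for silencing transposable elements. Others have a SCAN or BTB domain, act as activators or co-repressor partners, or bind RNA or ribosomes. The largest clusters of the family lie on chromosome 19, and the genes elsewhere stand in smaller clusters or alone. In the deposited annotation, 209 of the 265 genes had the transcription factor family zf-C2H2, 1 had ZBTB and 55 had none.

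The libraries held 16207785 counts (siControl) and 13002179 counts (siCYP4F11). CYP4F11 itself had 3180 and 972 counts, which leaves 37.8% of the control level (log2 ratio -1.40, 95% counting interval -1.51 to -1.30). The epithelial keratins KRT8, KRT18 and KRT19 were abundant, at 436 to 1746 CPM (the count scaled to the size of its library) over both libraries. Other defining epithelial markers were near absent, with 6 and 8 counts of EPCAM and 1 and 0 of CDH1. The lung lineage genes NKX2-1, SFTPB, SFTPC and SCGB1A1 had at most 3 counts in either library. The leukocyte markers PTPRC and CD3E had 0 counts in both libraries and LYZ had 1 in each, and the endothelial markers PECAM1 and VWF had 0. Of the fibroblast markers, COL1A1 had 34 and 33 counts and PDGFRB 72 and 65.

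The ZNF genes outside chromosome 19 stood lower in the siCYP4F11 library as a group, by a small amount. Together they took 85817 counts in siControl, 0.529% of the library (exact binomial 95% interval 0.526% to 0.533%), and 64816 counts in siCYP4F11, 0.499% (0.495% to 0.502%). On the CPM scale the sums were 5316 and 4965, a log2 ratio of -0.10, and the corresponding ratio for the ZNF genes of chromosome 19 was -0.10 as well. These intervals cover counting error only. With no replicate culture, how far such a share moves between cultures of the same kind is unknown.

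Of the 265 genes, 223 reached an average of 1 CPM over the libraries and are called measured. Their log2 ratios of siCYP4F11 over siControl had a median of -0.12 with quartiles of -0.29 and 0.04, and 155 of them (69.5%) were below 0 against 68 above. Over all 13942 measured genes the median was -0.005, with quartiles of -0.18 and 0.17 and 50.8% below 0. A single gene was called by size when the libraries differed by 2-fold or more, a log2 ratio of 1 in either direction, and its counting interval excluded 0. By that rule 0 of the 223 were higher and 1 was lower, where 0.703% of all measured genes were called higher and 1.26% lower (0.414% and 0.854% of the 12064 measured protein-coding genes). With 1.5-fold in place of 2-fold, 3 were higher and 7 lower, where 2.04% and 3.44% of all measured genes were. The difference was thus a shift of many genes by small amounts: 137 of the 223 lay within 0.25 of 0 on the log2 scale, and 22 were at least 0.5 away, 4 of them higher and 18 lower.

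A laxer reading counts genes whose 95% counting interval excludes 0, whatever the size. Here 19 measured ZNF genes (8.52%) were higher, against 18.6% of all measured genes and 20.2% of protein-coding ones. On the lower side there were 54 (24.2%), against 19.2% and 20.3%. The remaining 150 had intervals that included 0. The lower side was thus somewhat above its background and the higher side well below it. The 168 measured ZNF genes of chromosome 19 had 6 higher (3.57%) and 27 lower (16.1%) by this reading and a median of -0.11. Both of these shares were below those of all measured genes. The 29 measured ZFP, ZSCAN and ZKSCAN genes outside chromosome 19, relatives with other symbols, had 1 higher (3.45%) and 9 lower (31.0%) and a median of -0.16. The median was below 0 in each of the 3 sets, and no test of a difference between the sets was made.

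**Figure D1:**
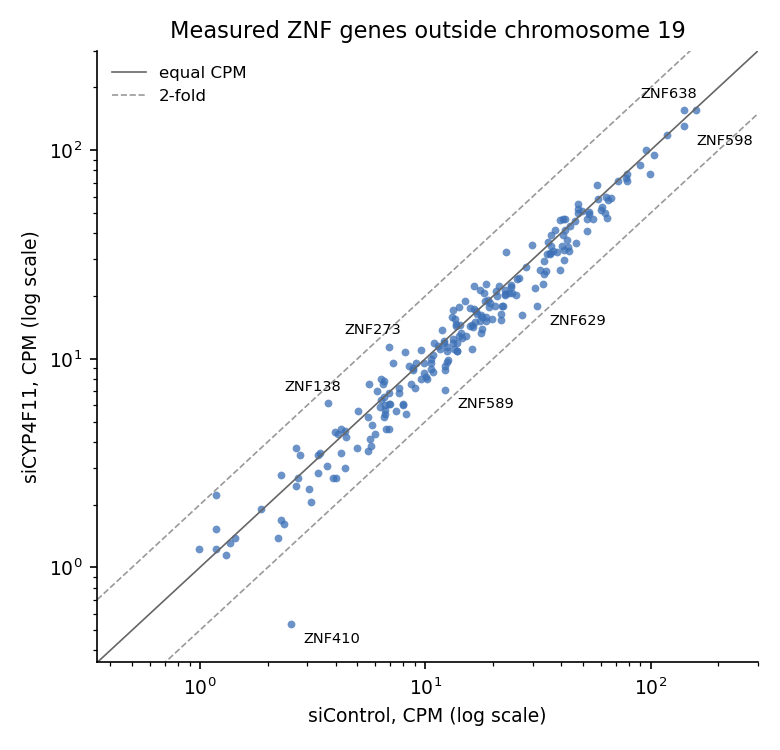
Level of each of the 223 measured ZNF genes outside chromosome 19 in siControl (x axis) and siCYP4F11 (y axis), in CPM on log axes, with 1 point per gene. The solid line marks equal levels and the dashed lines 2-fold. Most points sit close to and slightly under the solid line, and ZNF410 alone is called beyond 2-fold.

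The 1 gene called by size was ZNF410 (ENSG00000119725, chromosome 14, 73886617 to 73932511 on GRCh38), a C2H2 factor known for activating the NuRD remodeller gene CHD4. It had 41 counts in siControl and 7 in siCYP4F11, or 2.54 and 0.536 CPM, a log2 ratio of -2.16 (-3.65 to -1.07). CHD4 had 173 and 120 counts, at -0.22 (-0.57 to 0.12). The ZNF410 value is uncertain: its exons overlap exons of 4 other annotated genes, FAM161B and AC005480.1 on the other strand and PTGR2 and AC005520.1 on its own. In all, 39.8% of its 50-base words also occur in another gene, and how the counting treated such reads is not given in the sources used here. Shared words and exon overlap were not scored for CHD4, so the CHD4 value has no such check.

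ZNF629, ZNF589 and ZNF469 had the lowest log2 ratios after ZNF410. ZNF629 (ENSG00000102870, chromosome 16, 30778449 to 30787202, minus strand) had 507 counts against 233 in siCYP4F11, or 31.4 and 17.8 CPM, at -0.81 (-1.05 to -0.59). ZNF589 (chromosome 3, 48241100 to 48299253, plus strand) had 198 and 93 counts, or 12.3 and 7.12 CPM, at -0.78 (-1.16 to -0.42). ZNF469, a large gene mutated in brittle cornea syndrome, had 435 and 211 counts, or 26.9 and 16.2 CPM, at -0.74 (-0.98 to -0.50). For each of them the siCYP4F11 level was the lower one and the interval stayed clear of 0 without lying wholly past the 2-fold line. ZNF629 and ZNF469 shared none of their words with another gene.

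The rest of the 10 furthest on the lower side were better counted and closer to 0. ZNF646 had 642 and 349 counts at -0.57 (-0.77 to -0.38). ZNF827, a partner of the NuRD complex, had 537 and 298 at -0.54 (-0.75 to -0.34). ZNF503, a repressor of developmental genes, had 496 and 286 at -0.49 (-0.70 to -0.28), and 13.1% of its words are shared with the antisense gene ZNF503-AS2 and a second entry of the same symbol. These 3 genes were lower in siCYP4F11 by sizes well under 2-fold. ZNF335, a nuclear factor whose loss causes microcephaly, had 665 and 390 at -0.46 (-0.65 to -0.28). ZNF512B, another NuRD partner, had 1029 and 620 at -0.42 (-0.57 to -0.28). ZNF609, known as a partner of the cohesin loader NIPBL, had 1611 and 1003 at -0.38 (-0.49 to -0.26), and was the most counted of the 10.

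Among the 10 genes furthest up, ZNF273 and ZNF138 had the largest log2 ratios, and they are neighbours on chromosome 7. By the interval bound nearest 0, ZNF678 stood between them. ZNF273 (ENSG00000198039, 64870172 to 64930966, plus strand) had 111 counts in siControl and 149 in siCYP4F11, or 6.88 and 11.4 CPM, a log2 ratio of 0.73 (0.37 to 1.10). ZNF138 (64794388 to 64833681, plus strand) had 60 and 80 counts, or 3.72 and 6.13 CPM, at 0.72 (0.22 to 1.23). Both are KRAB zinc finger genes of low count, and 11.4% of the words of ZNF273 are shared with other genes. ZNF678, on chromosome 1, had 369 and 424 counts at 0.51 (0.30 to 0.71). ZNF449, which carries a SCAN domain, had 266 and 291 at 0.44 (0.19 to 0.68). ZNF395 had 131 and 141 at 0.41 (0.06 to 0.77), with 32.9% of its words shared with FBXO16. In these 3 the siCYP4F11 level was the higher one.

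The other 5 genes furthest up were ZNF248, ZNF674, ZNF131, ZNF367 and ZNF711. ZNF248 had 214 and 223 counts at 0.37 (0.09 to 0.64), and ZNF674, an X-linked gene, had 242 and 247 at 0.34 (0.07 to 0.60). ZNF131, a BTB-domain zinc finger gene and the 1 member annotated ZBTB, had 930 and 893 at 0.25 (0.11 to 0.38). These near-equal raw counts come from libraries of different depth, so the scaled level was the higher one in siCYP4F11. ZNF367 had 641 and 604 at 0.22 (0.06 to 0.38). ZNF711, an X-linked intellectual disability gene whose product works with the histone demethylase PHF8, had 770 and 721 at 0.21 (0.06 to 0.36). ZNF879 had a larger ratio but few reads, 19 and 29, at 0.90 (0.03 to 1.83), and is named after its value was seen.

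**Figure D2:**
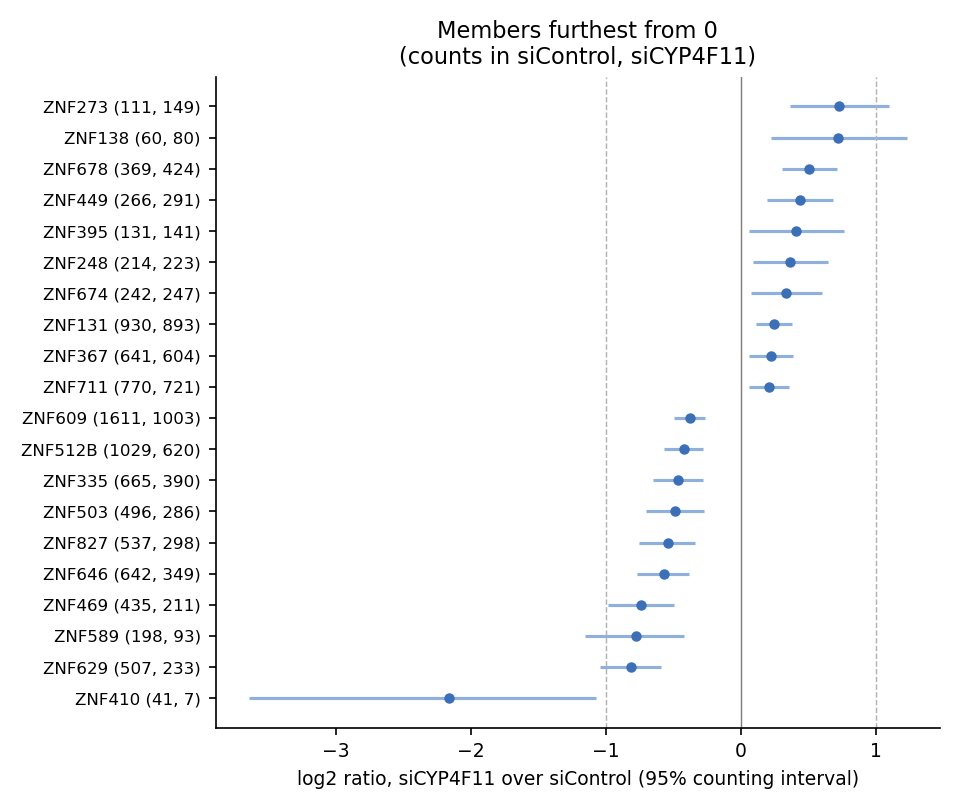
Log2 ratio of siCYP4F11 over siControl (x axis) for the 10 ZNF genes furthest up and the 10 furthest down, chosen by the interval bound nearest 0. Points are the ratios, bars the 95% counting intervals, dashed lines 2-fold, and the counts in siControl and siCYP4F11 stand after each name. ZNF410 alone has an interval wholly past the 2-fold line, from -3.65 to -1.07.

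Shown for comparison are the promoters of ZNF273 and ZNF138, neighbours with the largest ratios of the 10 genes furthest up. Those of ZNF629 and ZNF589, with the lowest ratios after ZNF410, stand beside them. Each is the RefSeq entry (GRCh38.p14) nearest the gene's start, 5′ to 3′ on the gene's strand, with 250 bases before the transcription start and 50 from it on. Capitals mark matches to any of 6 motifs, on either strand. These were the ETS site CCGGAAGT, the CCAAT box CCAAT, the GC box GGGCGG, the TATA element TATAAA and, given by name, the ZNF143 and NRF1 sites. The entries lie at chr7:64877353-64877652 (ZNF273, plus strand), chr7:64794178-64794477 (ZNF138, plus strand), chr16:30787156-30787455 (ZNF629, minus strand) and chr3:48240854-48241153 (ZNF589, plus strand). The ZNF273 entry starts inside the gene model of the deposited table, which begins further upstream at 64870172.
ZNF273: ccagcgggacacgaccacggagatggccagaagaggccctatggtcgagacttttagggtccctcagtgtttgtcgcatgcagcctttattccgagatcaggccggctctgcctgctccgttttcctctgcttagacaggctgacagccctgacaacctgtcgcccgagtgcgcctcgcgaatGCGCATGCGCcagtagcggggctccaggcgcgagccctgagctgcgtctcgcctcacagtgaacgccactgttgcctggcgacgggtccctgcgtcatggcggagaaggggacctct
ZNF138: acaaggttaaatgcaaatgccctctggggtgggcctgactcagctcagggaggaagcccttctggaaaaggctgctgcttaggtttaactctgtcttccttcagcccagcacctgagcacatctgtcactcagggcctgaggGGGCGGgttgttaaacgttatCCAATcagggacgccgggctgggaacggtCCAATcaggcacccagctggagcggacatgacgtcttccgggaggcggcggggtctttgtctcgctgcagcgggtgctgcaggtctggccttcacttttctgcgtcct
ZNF629: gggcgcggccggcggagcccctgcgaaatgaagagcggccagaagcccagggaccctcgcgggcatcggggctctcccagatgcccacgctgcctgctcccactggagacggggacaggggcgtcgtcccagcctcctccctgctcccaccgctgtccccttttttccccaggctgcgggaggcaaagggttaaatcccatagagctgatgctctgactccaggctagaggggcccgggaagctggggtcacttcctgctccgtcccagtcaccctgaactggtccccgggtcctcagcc
ZNF589: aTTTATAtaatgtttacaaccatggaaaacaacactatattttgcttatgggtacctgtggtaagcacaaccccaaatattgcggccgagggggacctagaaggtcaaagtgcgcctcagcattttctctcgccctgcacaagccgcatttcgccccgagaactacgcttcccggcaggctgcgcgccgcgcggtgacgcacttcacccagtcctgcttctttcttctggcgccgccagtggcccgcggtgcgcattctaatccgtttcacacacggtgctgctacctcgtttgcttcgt

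The 2 higher genes did not share a motif. ZNF273 holds an NRF1 match at base 184 and ZNF138 a GC box at base 143 and CCAAT boxes at bases 164 and 193. The 2 lower genes held no match but a TATA letter match at base 2 of ZNF589, far from its start. No matches overlapped each other in these windows. GC content was 63.3% in ZNF273, 59% in ZNF138, 68% in ZNF629 and 54.7% in ZNF589.

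Across the family, 213 of the 265 genes had RefSeq promoter entries, 287 entries in all. The ETS letters stood in 12.2% of them against 4.14% of all 35116 entries, the NRF1 letters in 12.5% against 5.78%, and the ZNF143 letters in 3.48% against 0.988%. The CCAAT box stood in 39.4% against 34.6%, the GC box in 56.8% against 45.0%, and the TATA element in 5.57% against 11.5%. Of 265 entries for ZNF genes of chromosome 19, 17.4% held the ETS letters, 11.3% the NRF1 letters and 3.40% the ZNF143 letters. There the CCAAT box stood in 49.4%, the GC box in 65.7% and the TATA element in 2.64%. A match is a description of letters and not a bound site. The 9 measured genes with a ZNF143 match had a median log2 ratio of 0.05, with 4 of 9 below 0, and the 177 measured genes with entries but no match had -0.13. The same medians were -0.07 and -0.14 for the ETS letters (29 and 157 genes) and -0.05 and -0.16 for the NRF1 letters (33 and 153 genes). For the CCAAT box they were -0.16 and -0.11 (91 and 95 genes). With 9 genes in the smallest set these medians are values only.

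By level per length (RPKM, which is CPM per kilobase of gene model, as a mean of both libraries), the 8 highest genes had log2 ratios from -0.17 to 0.09. ZNF622, which helps mature the large ribosomal subunit, stood first at 34.3 RPKM, and had 942 and 758 counts at a log2 ratio of -0.01 (-0.15 to 0.13). ZNF598, the ubiquitin ligase that senses collided ribosomes, followed at 28.8 RPKM, with 2270 and 1698 counts at -0.11 (-0.20 to -0.02). Its call depends on the processing: with a correction for GC content it stood at 0.028 (-0.064 to 0.119). ZNF768 (20.4 RPKM) was at 0.07 (-0.09 to 0.22) and ZNF664 (18.7) at -0.00 (-0.10 to 0.10). ZNF330, a nucleolar protein gene (17.2), was at -0.03 (-0.19 to 0.13) and ZNF672 (16.8) at -0.17 (-0.30 to -0.03). ZNF770 (16.1) was at -0.08 (-0.20 to 0.03), and ZNF217 (15.8), an oncogene amplified in breast cancer, at 0.09 (-0.02 to 0.19). So 2 of these 8 had an interval that excluded 0, both on the lower side. By this reading 19.2% of all measured genes were lower. With the GC correction both calls were lost, ZNF672 standing at -0.053 (-0.189 to 0.082). ZNF768 was then higher and ZNF770 lower by the interval. Of the 3 ribosome-related genes, ZNF598 alone was lower by the interval, and ZNF593 had no reads.

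The median was below that of protein-coding genes at each level of expression, by least at 1 to 5 CPM. Of the 80 measured genes averaging 20 CPM or more, 62 (77.5%) were below 0, with 8 higher and 32 lower by the interval and a median of -0.11. Protein-coding genes of that level had a median of 0.004, with 49.0% below 0, and 26.0% were higher and 24.7% lower by the interval, against 10% and 40% of the ZNF genes. The 106 genes from 5 to 20 CPM had a median of -0.14 against -0.02 for protein-coding genes, and the 37 genes from 1 to 5 CPM had -0.08 against -0.05, with 8.11% lower by the interval against 10.2%. Just inside the filter of 1 CPM lay ZNF165 with 16 and 16 counts and ZNF774 with 19 and 16, and just outside it ZNF396 with 14 and 13 and ZNF280A with 17 and 9.

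Transcript GC content moved with the ratios in these libraries, in the ZNF genes as in others. Across the 223 genes the Spearman correlation of log2 ratio with GC content was -0.25, and across 12058 measured protein-coding genes it was -0.36; genes of 1 pair of libraries are not independent replicates. The ZNF genes had a lower median GC content, 46.2%, than protein-coding genes, at 48.8%. Protein-coding genes were split into 3 groups of equal size at GC contents of 44.5% and 54.1%. In the group of lowest GC content, the 89 ZNF genes had a median of -0.06 and protein-coding genes 0.10. In the middle group the 76 ZNF genes had -0.11 and protein-coding genes -0.01, and in the highest group the 58 ZNF genes had -0.22 and protein-coding genes -0.11. The ZNF median was thus below that of protein-coding genes of like GC content in each of the 3 groups. After a correction of all ratios for GC content it was -0.13, with 13 genes higher and 55 lower by the interval, where 16.7% and 17.5% of all measured genes were higher and lower. Of the 19 genes higher without the correction 11 were higher with it, and of the 54 lower ones 41 were lower with it. Among genes named here, the higher calls of ZNF248, ZNF711, ZNF638, ZNF267 and ZNF107 and the lower calls of ZNF598, ZNF672, ZNF687 and ZNF74 were lost. Those of ZNF207, ZNF770, ZNF280C, ZNF281 and ZNF117 as lower and of ZNF768 as higher were gained.

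**Figure D3:**
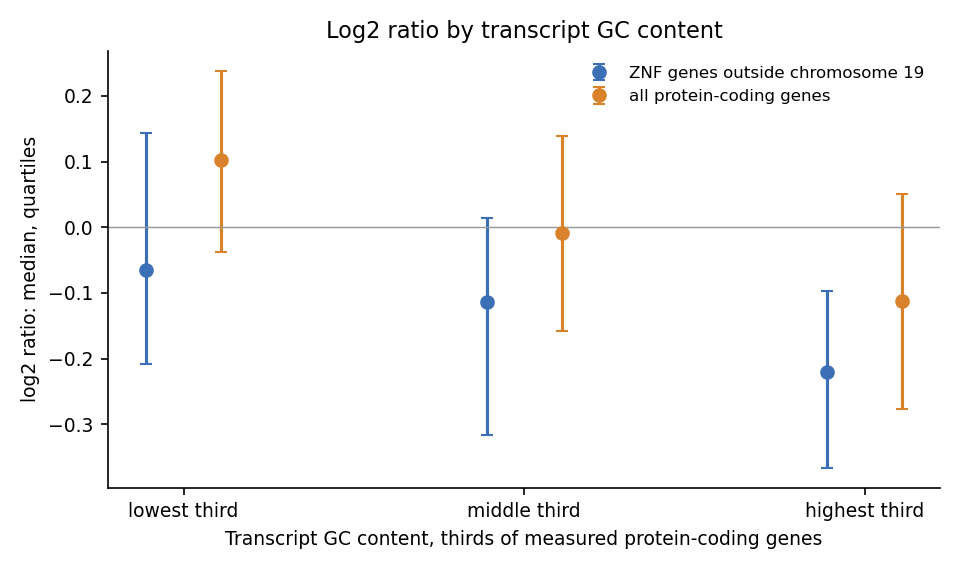
Median log2 ratio of siCYP4F11 over siControl (y axis, bars from the lower to the upper quartile) in 3 groups of transcript GC content (x axis), for the measured ZNF genes outside chromosome 19 and for all measured protein-coding genes. Both medians go down from low to high GC content, and the ZNF median is the lower one in each group.

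By chromosome, the shift was spread widely. Of the 18 chromosomes with at least 5 measured ZNF genes, 17 had a median below 0 and 17 had a median below that of the other protein-coding genes of the same chromosome. Medians ran from -0.35 on chromosome 20 to 0.005 on chromosome 17. Some of these signs depended on the processing: the chromosome X median was 0.002 when libraries were scaled by total counts, and those of chromosomes 2, 3 and 17 changed sign under another choice of genes or, for 17, a GC correction. The chromosome 11 median, -0.19 over 6 genes, was 0.073 without members whose exons overlap another gene.

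Chromosome 16 had the most measured genes, 28 of 31, with a median of -0.20 (quartiles -0.33 and -0.02), 21 below 0, and 1 higher (3.57%) and 5 lower (17.9%) by the interval, where 18.6% and 19.2% of all measured genes were. With the GC correction its median was -0.091. Its other protein-coding genes had a median of -0.07 and a high GC content of 56.3%, and the ZNF genes there had 59.6%. The 5 lower genes were ZNF598, ZNF629, ZNF646, ZNF469 and ZNF263, and the 1 higher was ZNF267 with 300 and 297 counts at 0.29 (0.06 to 0.53). Of 12 measured genes between 30378106 and 31917357, 7 were below 0 and 5 above, from ZNF629 at -0.81 to ZNF747 at 0.49, and 9 of the 12 intervals included 0. The ZNF747 interval (-0.13 to 1.12, 43 and 49 counts) included 0, and 46.9% of the words of ZNF747 are shared with other genes. The 7 genes between 3112560 and 3443553 had a median of -0.20, and of these ZNF263 alone, with 1012 and 653 counts at -0.33 (-0.47 to -0.18), had an interval clear of 0. Other genes share 32.1% of the words of ZNF263.

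Chromosome 7 followed with 26 of 34 genes measured, a median of -0.15 (quartiles -0.28 and 0.01) against 0.01 for its other protein-coding genes, and 5 higher (19.2%) and 9 lower (34.6%) by the interval, where 18.6% and 19.2% of all measured genes were. Its genes fell into runs of neighbours, taken as members at most 1 Mb apart. The run from 64045443 to 65401135, which holds ZNF273 and ZNF138, had 6 measured genes with a median of 0.22 and a median GC content of 35.2%. In it ZNF107 was at 0.43 (0.003 to 0.85, 91 and 99 counts). ZNF680 was at -0.62 (-1.17 to -0.11, 90 and 47 counts), and ZNF92 and ZNF117 had intervals that included 0. With the GC correction ZNF273, ZNF138 and ZNF107 were at 0.68, 0.57 and 0.25, and ZNF680, ZNF117 and ZNF92 at -0.81, -0.47 and -0.18. ZNF107 then had an interval that included 0, and ZNF117 was lower by the interval. The run from 149069643 to 150398631 had 11 measured genes with a median of -0.16 and a median GC content of 57.6%, of which 10 were below 0. The part of GC content in the difference between these runs was not tested. ZNF777 was the clearest of them, with 552 and 343 counts at -0.38 (-0.58 to -0.18). The 4 genes between 99472841 and 100082548 were all below 0, with ZNF655, the most read ZNF gene of the chromosome, at -0.03 (-0.15 to 0.09).

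Chromosomes 1, 10, 8, 3 and 12 held the next largest sets of measured genes. On chromosome 1, 12 of 17 were below 0 and the median was -0.18 against 0.005 for other protein-coding genes. By the interval 1 was higher (5.88%) and 5 lower (29.4%), where 18.6% and 19.2% of all measured genes were. ZNF672, with 1072 and 771 counts, was its most read gene. Chromosome 10 had 10 of 14 below 0 and a median of -0.16, with ZNF37A (650 and 455 counts) at -0.21 (-0.38 to -0.03). Chromosome 8 had 9 of 14 below 0 and a median of -0.11, and its most read gene ZNF706 was at -0.01 (-0.17 to 0.16) with 672 and 541 counts. Chromosome 3 had 7 of 13 below 0 and a median of -0.02, near the 0.02 of its other genes, with ZNF621 at 0.04 (-0.12 to 0.18). With the GC correction the median of the ZNF genes on chromosome 3 was -0.124. Chromosome 12 had 10 of 12 below 0 and a median of -0.08. Its run of 7 genes near the chromosome's end, from 132918308 on, stayed between -0.21 and 0.08, and 0 of the 7 had an interval clear of 0.

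Chromosome 20 had the lowest median, and chromosomes 4 and 18 had no measured gene above 0. On chromosome 20 the 9 measured genes had a median of -0.35 against -0.03 for other protein-coding genes, and 7 were below 0. ZNF335, ZNF512B and ZNF133, the last with 285 and 174 counts at -0.40 (-0.69 to -0.13), were lower by the interval, while the most read, ZNF217, was on the other side of 0. On chromosome 4 all 7 measured genes were below 0, with a median of -0.19 against 0.08, and on chromosome 18 all 7 were below 0, with a median of -0.16 against 0.07. On chromosome 4 these ran from ZNF827 at -0.54 to ZNF718 at -0.02, and 2 of the 7 had an interval clear of 0. On chromosome 18 they ran from ZNF516 at -0.33 to ZNF532 at -0.06, also with 2 clear of 0. There the most read was ZNF24, a SCAN-domain zinc finger gene, with 1267 and 930 counts at -0.14 (-0.26 to -0.02). Lower by the interval were 33.3% of the measured genes on chromosome 20 and 28.6% on each of chromosomes 4 and 18. Of all measured genes, 19.2% were lower.

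Without the GC correction, chromosomes 17 and X showed the least shift. With it their medians were -0.080 and -0.087, where chromosome 15 had -0.056 and chromosome 8 had -0.077. On chromosome 17, 5 of 10 were below 0 and the median of 0.005 was above the -0.04 of other protein-coding genes. The ZNF genes there had a median GC content of 43.9% and the other protein-coding genes 55.3%. The part of GC content in this was not tested. ZNF207, a spindle and splicing factor and the most counted of the 265 genes in siControl with 2560 counts, had 2038 in siCYP4F11 and stood at -0.02 (-0.11 to 0.06). On chromosome X, 6 of 11 were below 0 and the median was -0.01 against 0.02. By the interval 3 were higher (27.3%) and 2 lower (18.2%), where 18.6% and 19.2% of all measured genes were. ZNF449, ZNF674 and ZNF711 were the higher 3, ZNF41 with 753 and 470 counts was lower at -0.37 (-0.54 to -0.21), and the most read, ZNF280C, was at -0.01 (-0.14 to 0.12).

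The remaining chromosomes had few measured genes each. Chromosome 9 had 11 with a median of -0.19, chromosome 6 had 9 with -0.06, and chromosomes 2 and 5 had 8 each with -0.08 and -0.12. The most read gene of chromosome 2, ZNF638, which works in the silencing of unintegrated viral DNA, had 2275 and 2033 counts at 0.14 (0.06 to 0.23), and 0.03 after the GC correction. On chromosome 6 the most read was ZNF451, a SUMO ligase, at 0.16 (-0.003 to 0.32). Chromosome 15 had 7 measured genes with a median of -0.08, led in reads by ZNF106 at -0.11 (-0.22 to -0.01). Chromosome 11 had 6 with -0.19, the sign of which depended on genes with exon overlap, led by ZNF195 at 0.11 (-0.07 to 0.28). Chromosomes 14 and 22 had 3 each, all below 0, led by ZNF219 at -0.08 (-0.21 to 0.04) and ZNF74 at -0.35 (-0.63 to -0.08).

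**Figure D4:**
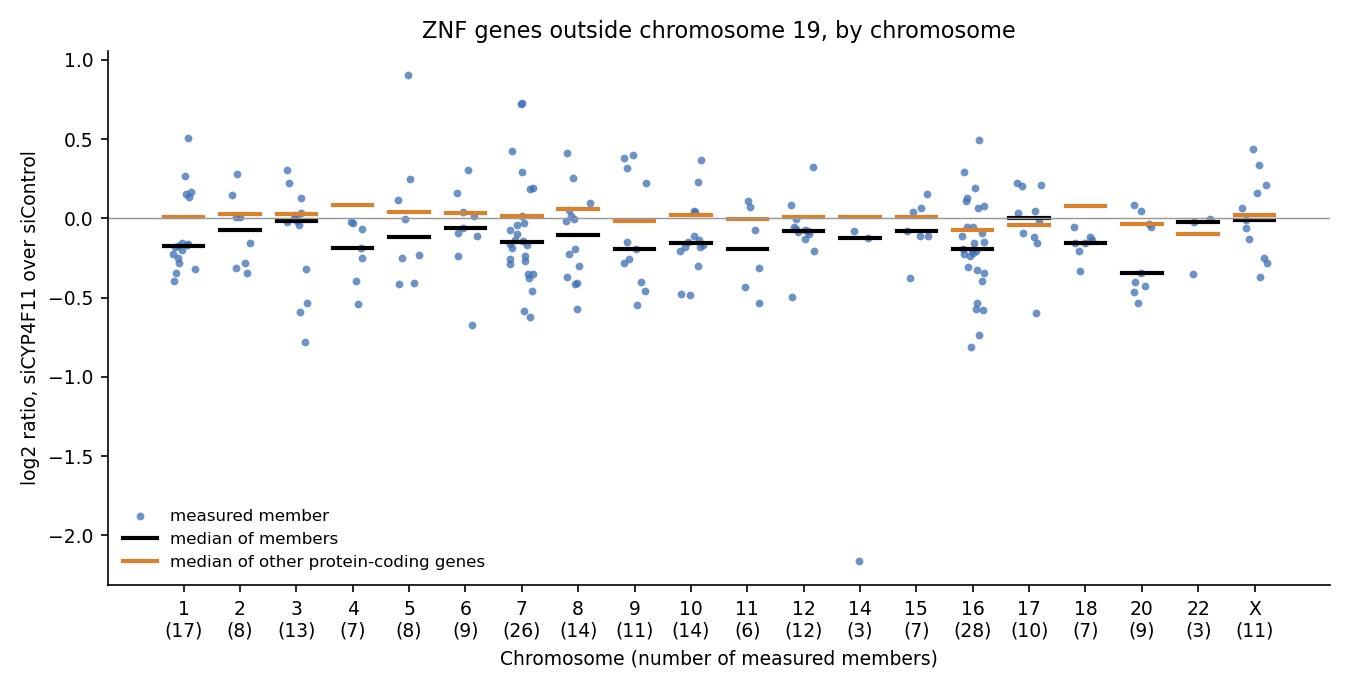
Log2 ratio of siCYP4F11 over siControl (y axis) of each measured ZNF gene, by chromosome (x axis, number of measured genes in brackets). Black bars are medians of the ZNF genes and orange bars medians of the other protein-coding genes of the chromosome. The black bar is the lower one on 17 of the 18 chromosomes with at least 5 measured genes, and chromosome 17 is the exception among them. The ratios shown are without the GC correction.

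Members were also grouped by known role, in small lists whose counts of calls are read against the 18.6% of all measured genes that were higher and the 19.2% that were lower by the interval. Among 8 genes of promoter-binding factors, 1 was higher and 4 lower by the interval, with a median of -0.16. ZNF143, the activator that binds the ZNF143 site, had 260 and 145 counts at -0.53 (-0.84 to -0.24), while its paralogue ZNF76 was at 0.04 (-0.14 to 0.22). ZNF384 had 351 and 201 counts at -0.50 (-0.76 to -0.24), with 28.5% of its words shared, and ZNF148 and ZNF281, which bind GC-rich promoters, were at -0.02 (-0.17 to 0.14) and -0.18 (-0.36 to 0.01).

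The list of partners of NuRD, of the G9a methyltransferase or of SUMO enzymes had 5 of 7 genes measured. Of these, 3 were lower by the interval: ZNF827, ZNF512B and ZNF410. ZNF410 is in the list as an activator of the NuRD gene CHD4, and its value is uncertain because of the overlaps given above. ZNF644, which works with G9a, was at 0.13 (-0.02 to 0.29). ZNF423 had 0 and 3 counts and ZNF521 had 0 in both libraries. The 3 genes whose products form a module with the chromatin reader ZMYND8, ZNF592, ZNF687 and ZNF532, had a median of -0.11, and ZNF687 alone (970 and 672 counts, at -0.22, -0.37 to -0.08) had an interval clear of 0.

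Of 5 genes for RNA-binding, splicing and spindle proteins, ZNF638 was higher and ZNF346, a binder of double-stranded RNA, was lower by the interval, with 351 and 213 counts at -0.41 (-0.67 to -0.16). Of 8 genes linked to neurodevelopment, 2 were higher (ZNF711 and ZNF674) and 4 lower (ZNF335, ZNF462, ZNF142 and ZNF41), with a median of -0.22. ZNF462 had 704 and 431 counts at -0.40 (-0.58 to -0.23) and ZNF142 had 666 and 434 at -0.31 (-0.49 to -0.13). The amplicon genes ZNF217 and ZNF703 both had intervals that included 0. Under the deposited family annotation, the 180 measured zf-C2H2 genes had a median of -0.14 and the other 43 had -0.09.

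The machinery through which KRAB zinc finger proteins act was measured in full over the listed genes, and 0 of them passed the size rule. Of 12 co-repressor genes, 3 were higher and 3 lower by the interval, with a median of -0.03, near the shares of all measured genes (18.6% and 19.2%). TRIM28, the KRAB-binding scaffold, had 6080 and 3754 counts at a log2 ratio of -0.39 (-0.45 to -0.33). The remodeller CHD3 had 4072 and 2589 at -0.35 (-0.42 to -0.28) and the maintenance methyltransferase DNMT1 3498 and 2552 at -0.15 (-0.22 to -0.07). The 3 heterochromatin protein genes were on the other side: CBX1 was at 0.36 (0.26 to 0.46), CBX3 at 0.14 (0.09 to 0.20) and CBX5 at 0.09 (0.02 to 0.16). The ratios of these listed genes are without the GC correction, and the part of GC content in them was not tested. SETDB1 was at -0.15 (-0.31 to 0.01). The HUSH complex, which silences repeats and recent insertions, and its partners had 0 higher and 2 lower of 5, namely MORC2 at -0.37 (-0.53 to -0.21) and PPHLN1 at -0.11 (-0.21 to -0.01).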

How the data were processed

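The authors deposited 1 table of whole-number read counts per gene for 2 libraries, not normalised. Per the submitters' processing notes, the tools were featureCounts 2.0.6, HISAT2 2.2.1, fastp and edgeR 4.0.16, with GRCh38 as the build; their roles, parameters and strand setting are not given in the sources used here. Libraries were poly-A selected and strand-specific by the dUTP method, per the labels' protocols. All 265 gene coordinates equal those of GENCODE release 29.

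Library sizes were scaled by TMM (edgeR 4.0.16). Log2 ratios came from counts with 0.5 added, with exact Clopper-Pearson 95% intervals of the siCYP4F11 share of each gene's counts, which cover counting error only because reads carry no molecular identifiers. A floor of 3 counts was 0.186 CPM in siControl and 0.230 CPM in siCYP4F11. With 1 library per group no test was run. The calculation was tested on simulated data. Transcript GC content, 50-base words and exon overlap came from GENCODE transcripts.

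Named genes were the 10 furthest up and 10 furthest down by the interval bound nearest 0, the 8 highest per length, the most read on each chromosome, those passing the size rule and genes of fixed lists; others named with values were chosen after their values were seen. The members and lists were chosen with earlier results of these data known. KRAB domains were not scored, because protein sequences were not used here; the deposited family annotation took their place. Alternatives were other library sizes, DESeq2 1.42.0 size factors among them, another added count, other filters and thresholds, a GC correction by lowess (span 0.3), means, and leaving out genes that share over 10% of their words, read-through genes or, added after the data were seen, genes with exon overlap.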

Additional observations from a re-analysis of the deposited data

How the results depend on the processing

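The group median stayed below 0 under all alternatives run, from -0.13 to -0.11. A gene's ratio is counted as moved when it leaves its counting interval, and a median when it leaves the interval given by its ordered values. By that measure the 3 other scalings and the larger added count moved 0 results, though with total counts ZNF622, ZNF664, ZNF706, ZNF280C and the chromosome X median, all within 0.01 of 0, changed sign, ZNF664 under all 3 scalings. The number of members lower by the size rule went from 1 to 2 with no filter on low counts and to 7 with a 1.5-fold threshold. It went to 0 with a mean CPM of at least 5, without members that share reads and without members whose exons overlap another gene, since each of these removes ZNF410. A 1.5-fold threshold gave 3 higher, where 2.04% of all measured genes were higher and 3.44% lower. Without members whose exons overlap another gene, 12 were higher and 30 lower by the interval, from fewer genes (117). These are 10.3% and 25.6%, where 8.52% and 24.2% of all measured members and 18.6% and 19.2% of all measured genes were. With that choice of members the median on chromosome 16 was -0.055. With the GC correction the median on chromosome 12 was -0.13 and the log2 ratio of ZNF598 turned to 0.028, ZNF219 was at 0.053, ZNF638 at 0.03, ZNF24 at -0.27, ZNF770 at -0.24 and ZNF207 at -0.14; the cause was not tested. No paired analysis was possible because each group has 1 library. Depth limits the 37 measured members under 5 CPM most, of which 5 had an interval that excluded 0.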

Other observations

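Of the 265 genes, 42 were below the filter: 22 had no read in either library and 20 had some. Under a floor of 3 counts, 0 reads allow up to 0.186 CPM (siControl) or 0.230 CPM (siCYP4F11). The 22 included the ZNF705 genes of chromosome 8 and chromosome 12, which are near-identical copies, and 5 genes of chromosome 7. Also at 0 was ZNF593, known for its part in ribosome assembly, in the same list as ZNF622 and ZNF598. In the annotation 87.7% of the 50-base words of ZNF593 also occur in AL391650.1, whose exons overlap it on the other strand, and its part in the count of 0 was not tested. Of the 22, 10 share over 10% of their words with another gene.

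ZNF750, a regulator of epidermal differentiation, had 14 counts in siControl and 1 in siCYP4F11, below the filter in the mean. It was chosen after its values were seen.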
